A study of Rattus norvegicus with 48 samples.

Results

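Renal cortex and renal medulla were compared in the animals that received no apocynin. The labels give each array a group and a number but no rat, and the same number within a group was taken to be the same rat. On that reading 12 of the 24 rats in the series belong here, 6 fed regular chow (control) and 6 whose chow contained hydroxy-L-proline (HLP) at 5% of its weight. With them belong 24 of the 48 arrays, 12 of cortex and 12 of medulla. The methods describe fewer rats and arrays, without a group on apocynin alone. Each cortex array was joined with the medulla array of the same group and number, which gave 12 of the 24 pairs. HLP is converted to glyoxylate and oxalate and is used in rats to produce hyperoxaluria with calcium oxalate crystals in the kidney. The other 12 pairs came from rats that drank apocynin, an inhibitor of NADPH oxidase, with or without HLP, and appear only as pairs on which the first contrast was not fitted. All rats were male, and tissue was taken on day 28. The labels name Wistar rats aged 28 days, whereas the methods name older Sprague-Dawley rats, so strain and age are not settled. RNA was made from a small piece of each tissue after the kidney had been divided by hand, and the authors caution that a clean division is difficult.

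The cortex holds the glomeruli, where plasma is filtered, the convoluted part of the proximal tubule and the distal convoluted and connecting tubules. The medulla holds the straight end of the proximal tubule in its outer stripe, the thick and thin limbs of the loop of Henle, the collecting ducts and the vasa recta, and its inner zone is hypertonic. Collecting ducts and thick limbs run through both tissues, and the border between the tissues is crossed by most segments of the nephron.

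RNA was hybridized to Illumina RatRef-12 BeadChips, on which a probe stands for a transcript. Signals were background-corrected, quantile normalized over the 24 arrays and expressed as log2 signal, so a difference of 1 is a 2-fold difference. A probe was tested where its detection p-value was under 0.05 in at least 6 of the 24 arrays, which held for 12356 of 22226 probes, and a gene was represented by its tested probe of highest mean signal, which gave 8794 genes. Differences are cortex minus medulla, with the rat as a block, and limma's p-values for this linear model carry the Benjamini-Hochberg adjustment over all probes tested. Before normalization the median signal was 36.4 to 39.9 in the cortex arrays and 49.3 to 61.1 in the medulla arrays, without overlap, while the share of probes detected was 49.5% to 52.7% and 49.9% to 52.1%. No chip or hybridization day is given, so the tissue and such a batch cannot be told apart. The names follow the signal table. The other deposited table gives 40 of the 48 arrays another name, keeps 24 of 24 pairs together, moves 0 arrays to the other tissue and changes the diet of 6 of the 12 pairs.

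One pair went against its labels. In control pair 4 only 7 of 407 probes (1.72%) that differed at least 2-fold over the other 11 pairs had the same direction, and its differences had a slope of −0.78 on the mean of those 11 pairs. For the other pairs the comparison left out control pair 4. The library labelled cortex of control 4 held medullary transcripts and the library labelled medulla of control 4 held cortical ones, as the single genes show. Control pair 1 had the direction of the others in 440 of 462 such probes (95.2%) but a slope of only 0.36. In the remaining 10 pairs 96.4% to 100% of these probes had the direction of the others, with slopes of 0.81 to 1.22. Results are therefore given for all 12 pairs as labelled and for the 11 pairs without control pair 4. Control pair 4 was set aside for its direction in the contrast tested here. Larger differences, smaller p-values and less overlap over the 11 pairs follow partly from that choice and are not further support.

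**Figure D1:**
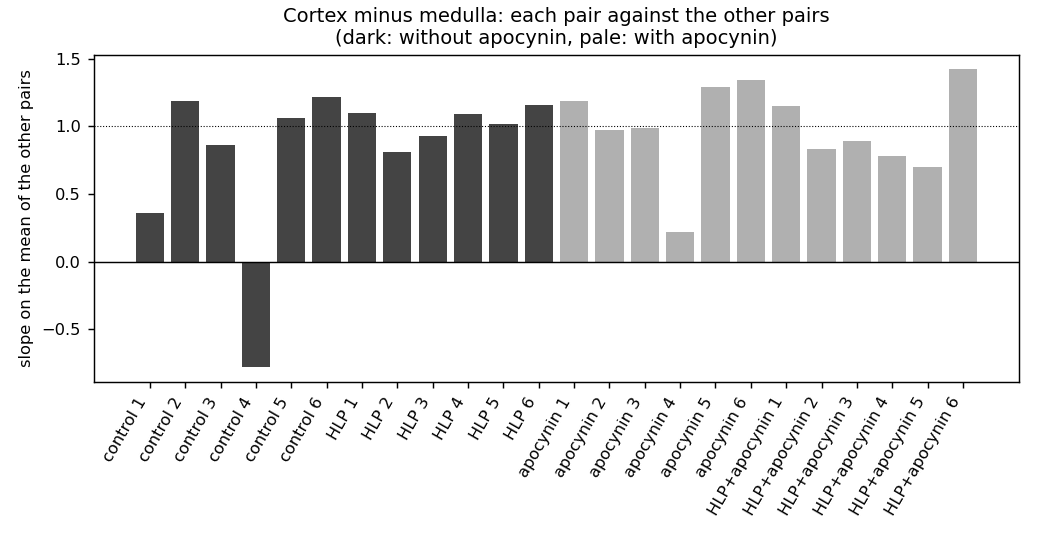
Slope of the cortex minus medulla differences of each pair (y axis, no unit) on the mean differences of the other pairs of the same apocynin status (control pair 4 left out of that mean), over the probes tested, for 12 pairs without apocynin (dark bars) and 12 with it (pale bars). The dotted line marks a slope of 1. Control pair 4 is at −0.78, control pair 1 at 0.36 and apocynin pair 4 at 0.22, and the other pairs lie between 0.70 and 1.42.

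Over the 12 pairs 7116 of 12356 probes (57.6%) differed between the tissues at an adjusted p under 0.05, 3772 of them higher in cortex and 3344 higher in medulla. Most of these differences were small: the median size was 0.16, 3498 of the 7116 (49.2%) were at a mean log2 signal under 7 in their brighter tissue, and 307 probes reached 2-fold, 141 higher in cortex and 166 higher in medulla. This count was 360 under median scaling (78 and 282) and 706 in the authors' log2 table (72 and 634). Without control pair 4, 7723 of 12256 probes differed and 407 reached 2-fold. Counted as genes, 31.2% of the 8794 were higher in cortex and 25% were higher in medulla over the 12 pairs, and 34.1% and 27.8% of 8737 over the 11 pairs, and the counts of listed genes below stand beside these shares. Absence of overlap between the tissues is given below for single genes, most of them chosen by the size or adjusted p of their difference. Its share over all genes was not counted, so it is a description of each gene. In pieces of tissue, fewer cells of a type and less RNA per cell cannot be told apart. The split of the calls between the tissues depended on the scaling of the arrays, with 53% of calls higher in cortex here, 22.7% under median scaling, 21.9% after quantile normalization within each tissue and 3.31% in the authors' log2 table.

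The proximal convoluted tubule, which reclaims filtered glucose, phosphate, amino acids and organic acids, was represented mainly by genes that were higher in cortex. Of 18 tested genes of its list, 14 were higher in cortex, 2 were higher in medulla and 2 were not called, with a median difference of 0.91 over 12 pairs and 1.06 over 11. Slc5a2, the sodium-glucose cotransporter SGLT2, had log2 signals of 10.22 to 12.29 (median 12.02) in cortex and 6.49 to 12 (median 9.58) in medulla. The lowest cortex value and the highest medulla value belonged to control pair 4, and without it the ranges, 11.47 to 12.29 and 6.49 to 10.99, did not overlap. The difference was 2.4 (SE 0.48, adjusted p = 0.0011, higher in cortex in 11 of 12 pairs), and 2.78 (SE 0.31, adjusted p = 4.94e-06) over 11 pairs. Slc5a12, a sodium-coupled lactate transporter, had 8.29 to 11.17 (median 10.63) in cortex and 6.43 to 9.96 (median 7.65) in medulla. Its difference was 2.55 (SE 0.41, adjusted p = 0.000301), and 2.94 (SE 0.23) over the 11 pairs, whose ranges did not overlap.

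Further carriers of this segment followed the same order. Slc22a8, the organic anion transporter OAT3, was higher in cortex by 2.46 (SE 0.46, adjusted p = 0.000824), Slc7a7, a basolateral exchanger of cationic amino acids, by 2.28 (SE 0.42) and Slc34a3, a sodium-phosphate cotransporter, by 2.24 (SE 0.46). Slc2a2, the basolateral glucose carrier GLUT2, differed by 1.42 (SE 0.25) and Slc7a9, the light chain of the cystine transporter, by 1.12 (SE 0.20). In these 5 genes the 11 cortex arrays lay above the 11 medulla arrays once control pair 4 was left out. A pair of proximal genes were opposite: Slc22a12, the urate exchanger URAT1, was lower in cortex by a difference of −0.82 (SE 0.17, adjusted p = 0.00141) and Slc9a3, the sodium-hydrogen exchanger NHE3, by −0.29 (SE 0.09, adjusted p = 0.0106), and both overlapped between the tissues also without control pair 4. A pair of abundant proximal genes were not called. Miox, myo-inositol oxygenase, stood at 0.01 (SE 0.03, adjusted p = 0.665). Slc3a1, the heavy chain that pairs with Slc7a9, stood at −0.05 (SE 0.03, adjusted p = 0.133). Their signals, 12.90 to 13.12 and 13.34 to 13.62 over both tissues, were near the highest of the named genes. Whether a ceiling of the signal narrowed their differences was not tested.

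**Figure D2:**
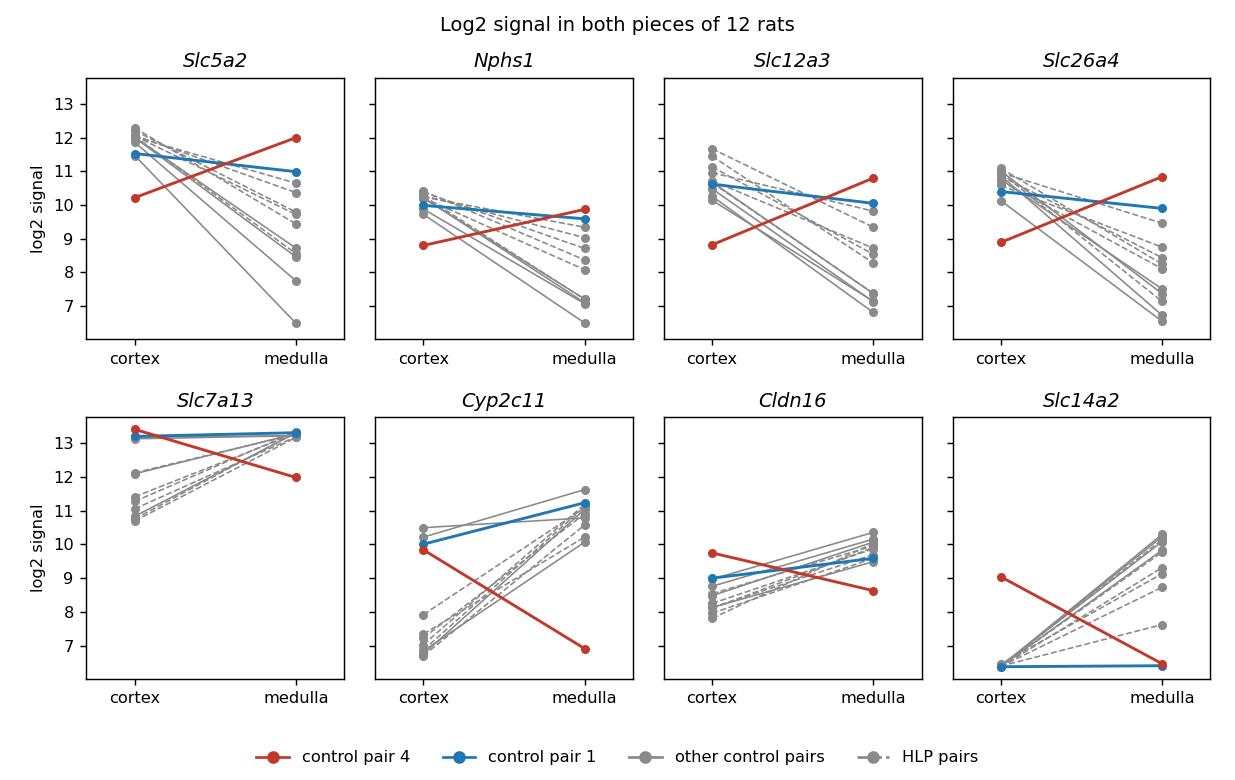
Log2 signal (y axis) of 8 genes in the cortex and medulla arrays (x axis) of 12 rats, each line joining both arrays of a rat, with control pair 4 in red, control pair 1 in blue, other control pairs solid grey and HLP pairs dashed grey. Slc5a2, Nphs1, Slc12a3 and Slc26a4 fall from cortex to medulla and Slc7a13, Cyp2c11, Cldn16 and Slc14a2 rise in most rats, while the red line runs the other way, as in Slc5a2 from 10.22 in cortex to 12 in medulla.

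The glomerulus was likewise represented by genes higher in cortex. Of 10 tested genes of podocytes and glomeruli, 8 were higher in cortex, 0 were higher in medulla and 2 were not called, with a median of 0.49 over 12 pairs and 0.57 over 11. Nphs1, which encodes nephrin of the slit diaphragm, had 8.80 to 10.41 (median 10.21) in cortex and 6.50 to 9.87 (median 8.23) in medulla. The difference was 1.88 (SE 0.35, adjusted p = 0.000777), and 2.14 (SE 0.24) over 11 pairs, whose ranges did not overlap. Podxl, the sialomucin podocalyxin, differed by 0.60 (SE 0.11) and Nes, the intermediate filament nestin, by 0.72 (SE 0.13). Nephrin was detected in 12 of 12 medulla arrays. In the 5 control pairs other than pair 4 its difference was 2.51, against 1.84 in the 6 HLP pairs. No probe passed the test between diets, given below.

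The distal convoluted and connecting tubule had the gene with the largest cortical difference. Of 8 tested genes of these segments 7 were higher in cortex, 0 were higher in medulla and 1 was not called, with a median of 0.67 (0.81 over 11 pairs). Calb1, the cytosolic calcium carrier calbindin, had 11.17 to 13.31 (median 13.13) in cortex and 6.70 to 13.23 (median 10.34) in medulla. Its difference of 2.83 (SE 0.59, adjusted p = 0.00141) became 3.28 (SE 0.39, adjusted p = 8.52e-06) without control pair 4, and the groups then did not overlap. Slc12a3, the thiazide-sensitive sodium-chloride cotransporter, had 8.82 to 11.67 (median 10.67) in cortex and 6.81 to 10.80 (median 8.41) in medulla, with a difference of 2.18 (SE 0.42, adjusted p = 0.000922) and of 2.56 (SE 0.25) over 11 pairs. Klk1, tissue kallikrein, differed by 2.54 (SE 0.56), and Klk1b3 and Klk1c9 differed by 2.63 (SE 0.56) and 2.23 (SE 0.48). Rat glandular kallikreins are near-identical copies, so the signals of these 3 probes may come from shared transcripts.

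In the collecting duct the genes of intercalated cells, which secrete acid or base, and of principal cells, which take up sodium and water, did not move as blocks. Of 15 tested intercalated genes 9 were higher in cortex, 1 was higher in medulla and 5 were not called. The median of 0.21 turned to −0.16 in the authors' log2 table. Slc26a4, the chloride-bicarbonate exchanger pendrin of type B cells, had 8.89 to 11.09 (median 10.81) in cortex and 6.55 to 10.84 (median 8.18) in medulla. It differed by 2.35 (SE 0.46, adjusted p = 0.000944), and by 2.74 (SE 0.28) over the 11 pairs, whose ranges did not overlap. Slc4a1, the anion exchanger AE1 of type A cells, was opposite, at −0.60 (SE 0.17, adjusted p = 0.0107), and higher in cortex in 3 of 12 pairs.

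Of 11 tested principal cell genes 4 were higher in cortex, 5 were higher in medulla and 2 were not called, beside 31.2% and 25% of all genes. Scnn1b, the beta subunit of the epithelial sodium channel, was higher in cortex by 0.71 (SE 0.14, adjusted p = 0.00122). Medulla had more of Aqp2, the vasopressin-regulated water channel, at −0.95 (SE 0.23, adjusted p = 0.00317), and of Fxyd4, a small regulator of the sodium pump, at −1.80 (SE 0.36, adjusted p = 0.00111). Aqp2 had 9.31 to 10.34 (median 9.60) in cortex and 9.34 to 11.30 (median 10.90) in medulla, and these ranges overlapped also without control pair 4, since the medulla array of control 1 had the lowest medullary value.

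Genes of the straight part of the proximal tubule, which lies in the outer stripe of the medulla, split. Of 7 tested, 2 were higher in cortex, 4 were higher in medulla and 1 was not called, with a median of −0.20. The shares of all genes were 31.2% and 25%. Slc7a13, an amino acid exchanger of this part, had 10.70 to 13.42 (median 11.76) in cortex and 11.99 to 13.35 (median 13.29) in medulla. It differed by −1.23 (SE 0.25, adjusted p = 0.00132) over 12 pairs and by −1.48 (SE 0.20, adjusted p = 2.69e-05) over 11, where the highest cortex array (13.21, control 1) still lay just above the lowest medulla array (13.18, HLP 3). Slc22a7, the organic anion transporter OAT2, stood at −1.31 (SE 0.28) and Slc6a18, a neutral amino acid transporter, at −1.39 (SE 0.25), and neither overlapped without control pair 4. Slc5a8, a monocarboxylate transporter, was higher in cortex by 0.49 (SE 0.13, adjusted p = 0.00547), although under median scaling it stood at 0.22 (adjusted p = 0.178).

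The thick ascending limb, which takes up salt without water and reclaims calcium and magnesium between its cells, was higher in medulla throughout its called genes. Of 8 tested genes 0 were higher in cortex, 7 were higher in medulla and 1 was not called, with a median of −0.61, and over 11 pairs 8 of 8 were higher in medulla with a median of −0.73. Cldn16, a claudin of the paracellular path for calcium and magnesium, had 7.81 to 9.75 (median 8.37) in cortex and 8.63 to 10.36 (median 9.89) in medulla. Its difference was −1.29 (SE 0.19, adjusted p = 0.000198), and −1.51 (SE 0.09, adjusted p = 7.54e-08) over 11 pairs, whose groups did not overlap. Its partner Cldn19 stood at −1.07 (SE 0.19) and Kcnj1, the potassium channel ROMK, at −0.84 (SE 0.19). The abundant secreted proteins of this segment differed little in signal. Umod, uromodulin, stood at −0.16 (SE 0.05, adjusted p = 0.0241) and Egf, epidermal growth factor, at −0.16 (SE 0.07, adjusted p = 0.0584). The Egf difference became −0.18 (adjusted p = 0.0279) without control pair 4. Umod had 12.97 to 13.54 over both tissues, near the highest signals of the named genes. Whether a ceiling of the signal narrowed its difference was not tested.

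The inner zone was represented by fewer measurable genes. Of 7 tested genes of thin limbs and inner medulla 0 were higher in cortex, 5 were higher in medulla and 2 were not called. Slc14a2, the urea transporter of the inner medullary collecting duct, was detected in 3 of 12 cortex arrays and stood at 6.37 to 6.45 in 11 of them and at 9.04 in the library labelled cortex of control 4. In medulla it had 6.40 in control 1, 6.46 in control 4, 7.62 in HLP 2 and 8.73 to 10.30 in the other 9 arrays. The difference was −2.39 (SE 0.51, adjusted p = 0.00171) over 12 pairs and −2.85 (SE 0.32, adjusted p = 5.44e-06) over 11. Cldn4, a claudin of the collecting duct, stood at −0.62 (SE 0.15) and Aqp1, the water channel of proximal tubules and thin descending limbs, at −0.32 (SE 0.07).

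**Figure D3:**
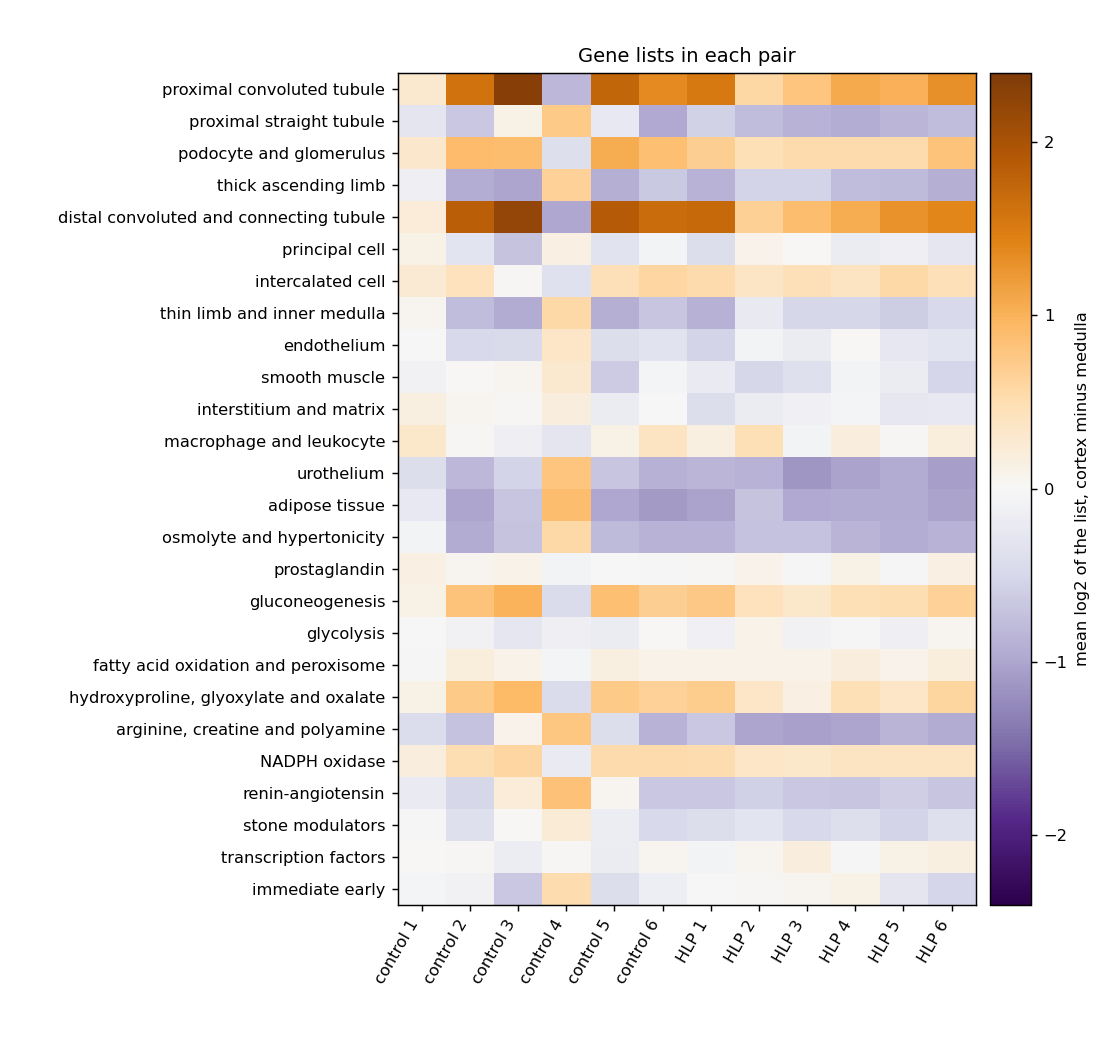
Mean log2 difference (cortex minus medulla) of the tested genes of the lists shown (rows) in each of the 12 pairs (columns). Colors run from purple (higher in medulla) to orange (higher in cortex). The skeletal muscle, adrenal cortex and erythroid cell lists and the gene families are left out. In the proximal convoluted tubule row control pair 4 is at −0.82, control pair 1 at 0.30 and the other pairs at 0.58 to 2.31.

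The pairs differed among themselves in more than strength. Over the 11 pairs the mean of the proximal convoluted list was higher in cortex by 0.30 in control 1 and by 2.31 in control 3, and the podocyte list by 0.31 and 0.89. The medullary genes of the outer stripe did not follow this order. Slc7a13 differed by −0.11 in control 1, −0.03 in control 3 and −0.09 in control 5, where the cortex arrays were as high as 13.14 to 13.21, but by −1.16 to −2.57 in the 6 HLP pairs and by −1.19 and −2.46 in control 2 and control 6. Cyp2c11, a male-specific cytochrome P450 of the rat, showed the same cortex arrays apart, with 10.01, 10.50 and 10.22 in control 1, 3 and 5 against 6.70 to 7.92 in the other 8 cortex arrays without control 4. In medulla Cyp2c11 had 10.07 to 11.63 in these 11 pairs, so the tissues overlapped through control 3 and control 5. Rat members of this P450 subfamily are close copies, and the probe may detect more than 1 of them. Its difference was −2.46 (SE 0.46, adjusted p = 0.000773), and −2.95 (SE 0.29) without control pair 4. Slc14a2 stood at 6.37 to 6.38 in the same 3 cortex arrays. Whether these pieces held more of the outer medulla was not tested.

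Of the 15 genes of largest medullary difference, 13 had their highest cortex signals in control 1, 3 and 5 once control 4 was left out. The 2 exceptions were Slc14a2 and Nupr1, a stress-induced nuclear protein. Nupr1 had 7.76, 7.01 and 6.75 in these cortex arrays and differed by −0.19 in control 1, −3.9 in control 3 and −4.25 in control 5. Gc, the vitamin D-binding protein, had 6.50 to 10.12 in cortex, with 9.94, 10.02 and 8.68 in control 1, 3 and 5 and 10.12 in the library labelled cortex of control 4, and 6.88 to 11.43 in medulla. It differed by −3.10 (SE 0.53, adjusted p = 0.000436), and by −3.68 (SE 0.30, adjusted p = 3.48e-07) without control pair 4. Cryab, the small heat-shock protein alpha-B-crystallin and a member of the osmolyte list, stood at −2.69 (SE 0.48) and −3.26 (SE 0.23), Slco1a6, an organic anion transporter, at −2.70 (SE 0.48) and −3.24 (SE 0.24), and Ppp1r1b, the phosphatase inhibitor DARPP-32, at −2.89 (SE 0.54) and −3.50 (SE 0.24). Cyp1a1, the cytochrome P450 induced through the aryl hydrocarbon receptor, had −2.57 (SE 0.54) and −3.13 (SE 0.28), but was detected in only 6 of 12 cortex arrays, so these sizes are set in part by the background. Rgn, the calcium-binding protein regucalcin, and Aspg, an asparaginase, differed by −2.30 (SE 0.40) and −2.51 (SE 0.45). In these 7 genes the 11 cortex arrays stayed below the 11 medulla arrays, and the cortex arrays of control 1, 3 and 5 were the highest of the 11 in each. A second probe of Ppp1r1b, near background, differed by only −0.18.

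Outside the tubule lists, cortex had more of Phgdh, the first enzyme of serine synthesis, by 2.19 (SE 0.39, adjusted p = 0.000591), of Adh1c, a class I alcohol dehydrogenase, by 2.47 (SE 0.46), and of F13b, the carrier subunit of coagulation factor XIII, by 2.20 (SE 0.33). F13b had 8.86 to 10.08 (median 9.64) in the 11 cortex arrays without control 4 and 6.36 to 7.98 (median 7.11) in the 11 medulla arrays. Its difference over these pairs was 2.53 (SE 0.15, adjusted p = 7.54e-08).

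Of 18 tested transcription factors of the list 5 were higher in cortex, 7 were higher in medulla and 6 were not called, beside 31.2% and 25% of all genes. Maf, a leucine zipper factor, was higher in cortex by 1.80 (SE 0.33, adjusted p = 0.000631) and Nr1h4, the bile acid receptor FXR, by 0.81 (SE 0.16). Medulla had more of Irx1, a homeobox factor of the developing nephron, at −1.06 (SE 0.20, adjusted p = 0.000771), and of Pou3f3, a POU factor of the loop of Henle, at −0.77 (SE 0.17). Without control pair 4 the 11 arrays of each tissue did not overlap in these 4 genes.

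**Figure D4:**
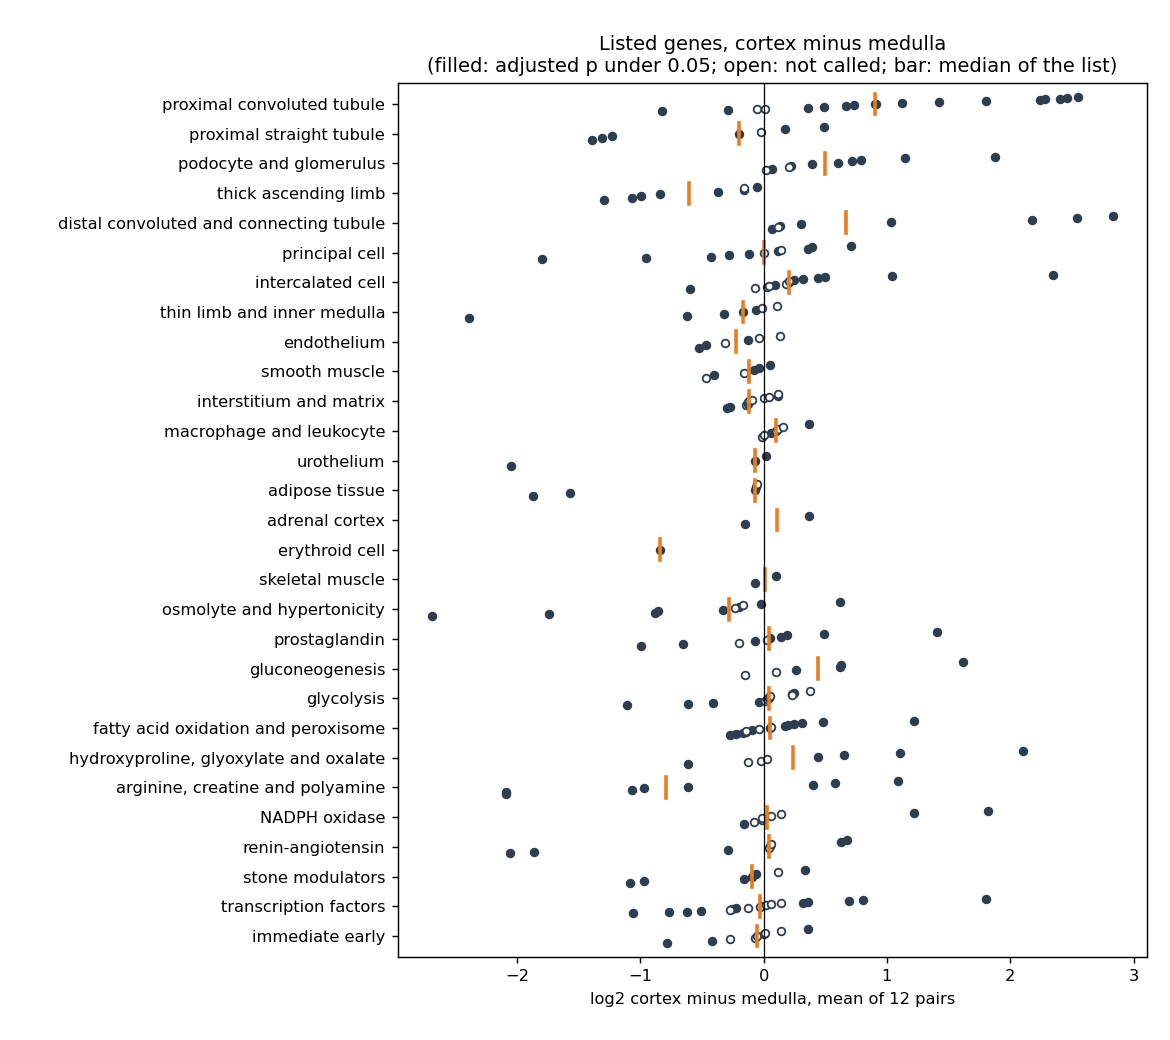
Log2 difference (x axis, cortex minus medulla, mean of 12 pairs) of every tested gene of 29 lists (rows), with filled points at an adjusted p under 0.05, open points above it and an orange bar at the median of the list. The medians of the proximal convoluted tubule (0.91), the distal tubule (0.67) and the glomerulus (0.49) lie on the cortical side and those of the thick ascending limb (−0.61) and of arginine, creatine and polyamine metabolism (−0.79) on the medullary side.

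Genes of glucose and amino acid metabolism were called in both directions, as were all genes (31.2% higher in cortex and 25% higher in medulla). Of 6 tested genes of gluconeogenesis 4 were higher in cortex, 0 were higher in medulla and 2 were not called, with a median of 0.44 (0.50 over 11 pairs), although under median scaling 2 were higher in cortex and 2 in medulla. G6pc1, the catalytic subunit of glucose-6-phosphatase, had 11.54 to 12.99 (median 12.78) in cortex and 9.15 to 12.68 (median 11.03) in medulla, a difference of 1.62 (SE 0.31, adjusted p = 0.000832) and of 1.87 (SE 0.20) without control pair 4, where the ranges still met at 12.23 and 12.25. Slc37a4, which carries glucose-6-phosphate into the endoplasmic reticulum, differed by 0.62 (SE 0.13). In glycolysis 2 of 13 genes were higher in cortex, 4 were higher in medulla and 7 were not called. Medulla had more of Pfkp, a phosphofructokinase, at −1.11 (SE 0.24, adjusted p = 0.00168), and of Ldha, the lactate dehydrogenase subunit of anaerobic tissue, at −0.61 (SE 0.11, adjusted p = 0.000644).

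All 8 tested genes of arginine, creatine and polyamine metabolism were called, 3 higher in cortex and 5 higher in medulla, with a median of −0.79 (−0.96 over 11 pairs). Cortex had more of both enzymes that make arginine from citrulline, Ass1 by 0.58 (SE 0.11, adjusted p = 0.000982) and Asl by 1.09 (SE 0.30, adjusted p = 0.00701). Medulla had more of Arg2, the mitochondrial arginase that turns arginine into ornithine, at −2.09 (SE 0.36, adjusted p = 0.000503), and of Odc1, ornithine decarboxylase, which leads ornithine into polyamines, at −2.09 (SE 0.40, adjusted p = 0.000875). Arg2 had 6.91 to 9.60 (median 7.20) in cortex and 7.21 to 10.35 (median 9.99) in medulla, and Odc1 had 9.18 to 12.56 (median 9.57) and 9.70 to 12.70 (median 12.48). In Arg2 and Odc1 the lowest medulla array and the highest cortex array were those of control 4, and the ranges of the other 11 pairs did not overlap. Gamt, which makes creatine, stood at −0.97 (SE 0.17).

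Cells of the inner zone hold organic osmolytes against the hypertonic interstitium. Of 10 tested genes of osmolytes and hypertonicity 1 was higher in cortex, 7 were higher in medulla and 2 were not called, with a median of −0.28. Slc5a3, the myo-inositol carrier, had 8.55 to 9.59 (median 9.21) in cortex and 8.03 to 11.99 (median 11.32) in medulla, with a difference of −1.74 (SE 0.30, adjusted p = 0.00043) and of −2.0 (SE 0.20) over the 11 pairs, whose ranges did not overlap. Slc38a2, a neutral amino acid carrier, stood at −0.88 (SE 0.18). Akr1b1, aldose reductase and the source of sorbitol, was not called, at −0.23 (SE 0.12, adjusted p = 0.101). The exception was Sgk1, the aldosterone-induced and osmosensitive kinase, which was higher in cortex by 0.62 (SE 0.09, adjusted p = 0.00014).

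The genes that turn HLP into oxalate, and those that carry oxalate, were measured in both tissues. Of 8 tested genes of hydroxyproline, glyoxylate and oxalate metabolism 4 were higher in cortex, 1 was higher in medulla and 3 were not called. The 1 higher in medulla was Ldha, at −0.61, which is also in the glycolysis list. Prodh2, which begins the breakdown of hydroxyproline, had 8.89 to 10.93 (median 10.75) in cortex and 6.48 to 10.72 (median 8.32) in medulla. The difference was 2.10 (SE 0.43, adjusted p = 0.00126), and 2.45 (SE 0.26, adjusted p = 3.43e-06) over the 11 pairs, whose ranges did not overlap. Grhpr, which reduces glyoxylate to glycolate, was higher in cortex by 0.65 (SE 0.14), and Slc26a1, a basolateral exchanger of sulfate and oxalate, by 1.11 (SE 0.25). Prodh2 differed by 2.86 in the 5 control pairs and by 2.11 in the 6 HLP pairs, but no probe passed the test between diets, given below. Hao1, glycolate oxidase, which makes glyoxylate and is best known from liver, was near background, with 6.54 to 7.34 in cortex and detection in 6 of 12 medulla arrays, and differed by 0.44 (SE 0.09, adjusted p = 0.00141).

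Of 8 tested genes of NADPH oxidase, the source of superoxide that apocynin is given to block, 2 were higher in cortex, 1 was higher in medulla and 5 were not called. Nox4, the catalytic subunit of renal epithelium, had 8.79 to 11.17 (median 10.41) in cortex and 6.66 to 10.17 (median 8.56) in medulla, a difference of 1.82 (SE 0.33, adjusted p = 0.000691) and of 2.11 (SE 0.21) over the 11 pairs. Cyba, the membrane partner p22phox, had 12.32 to 13.25 (median 13.09) and 10.63 to 13.24 (median 11.73), a difference of 1.22 (SE 0.24, adjusted p = 0.000912) and of 1.42 (SE 0.15). Neither gene overlapped between the tissues without control pair 4. The phagocyte subunits were not called, Cybb at −0.08 (SE 0.07, adjusted p = 0.34), Ncf1 at −0.01 (SE 0.07, adjusted p = 0.925) and Ncf4 at −0.01 (SE 0.01, adjusted p = 0.468), although Cybb and Ncf1 were called higher in medulla under median scaling, at −0.27 (adjusted p = 0.013) and −0.32 (adjusted p = 0.00622). Rap1a, a small GTPase bound to the complex, stood at −0.16 (SE 0.05, adjusted p = 0.0111).

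Of 8 tested genes of the renin-angiotensin system 3 were higher in cortex, 3 were higher in medulla and 2 were not called. Agt, angiotensinogen, had 6.58 to 10.43 (median 6.89) in cortex and 7.18 to 10.09 (median 9.64) in medulla. It differed by −1.86 (SE 0.41, adjusted p = 0.00211), and by −2.33 (SE 0.23, adjusted p = 1.58e-06) without control pair 4, and the groups overlapped in both cases because the cortex array of control 3 was at 9.51. Mme, neprilysin, which cleaves angiotensin peptides, stood at −2.06 (SE 0.38, adjusted p = 0.000676). Cortex had more of the receptor Agtr1a, by 0.63 (SE 0.11, adjusted p = 0.000563), and of Enpep, glutamyl aminopeptidase, which shortens angiotensin II, by 0.68 (SE 0.11, adjusted p = 0.000419).

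Among modulators of stone formation 1 of 7 tested genes was higher in cortex, 5 were higher in medulla and 1 was not called. Spp1, osteopontin, a crystal-binding protein of the urine, had 11.17 to 13.09 (median 11.69) in cortex and 10.69 to 13.18 (median 12.99) in medulla. It differed by −0.97 (SE 0.23, adjusted p = 0.00327), and by −1.13 in the 5 control pairs other than pair 4 and −1.14 in the 6 HLP pairs. F2, prothrombin, whose fragment is found in stones, stood at −1.08 (SE 0.26, adjusted p = 0.00317). Ccl2, the monocyte chemoattractant MCP-1, was near background at 6.45 to 7.10 over both tissues and differed by −0.06 (SE 0.02, adjusted p = 0.0271), a call that was lost without the pairing (adjusted p = 0.383). Mgp, matrix Gla protein, was not called over 12 pairs, at 0.12 (SE 0.07, adjusted p = 0.171), and was called over 11, at 0.17 (SE 0.06, adjusted p = 0.0209).

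Markers of tissues that a piece of kidney may carry with it were also measured, and their part in the differences was not tested. Of 5 tested adipose genes 0 were higher in cortex, 4 were higher in medulla and 1 was not called, and Fabp4, a fatty acid carrier of fat cells and capillaries, stood at −1.87 (SE 0.41, adjusted p = 0.00194) and Cidec, a lipid droplet protein, at −1.57 (SE 0.31, adjusted p = 0.00104). Adipoq, which defines fat cells, was near background at 6.47 to 6.65 and differed by −0.06 (SE 0.02), and leptin and resistin (Lep and Retn) were detected in 0 of 24 arrays. Of 3 tested urothelial genes 1 was higher in cortex and 2 were higher in medulla. Krt19, a keratin of urothelium and collecting duct, stood at −2.05 (SE 0.34, adjusted p = 0.000378), while Upk1b, Upk3a, Krt14 and Tp63 were detected in 2, 5, 4 and 2 of 24 arrays. Skeletal muscle actin and creatine kinase (Acta1 and Ckm) and the adrenal genes Star and Cyp11b2 were detected in 0 arrays, and Cyp11b1 in 3. The tested genes of the adrenal and skeletal muscle lists were near background and called. Cyp11a1, which begins steroid synthesis, stood at 0.37 (SE 0.06, adjusted p = 0.000404), with 6.51 to 7.17 in cortex and 6.41 to 6.77 in medulla, and Cyp21a1, steroid 21-hydroxylase, at −0.15 (SE 0.02). The muscle genes Myl1, a myosin light chain, and Tnnt3, a troponin, stood at 0.1 and −0.07, and Myl1 turned to −0.13 in the authors' log2 table. The mean log2 signal of the 5 adipose genes was 6.48 to 6.98 in the 11 cortex arrays without control 4 and 7.09 to 7.66 in the 11 medulla arrays, and that of the 3 urothelial genes 6.62 to 7.37 and 7.57 to 7.91, without overlap in either list. The urothelial mean follows Krt19, since Upk1a (6.39 to 6.46 over both tissues) and Krt20 (6.36 to 6.49) were near background and differed by 0.02 and −0.07. The adipose mean follows Fabp4 and Cidec, since the median difference of that list was only −0.07.

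Some differences had the labelled direction in control pair 4 too. Slc6a6, the taurine carrier, had 7.03 to 7.66 (median 7.30) in cortex and 7.81 to 8.74 (median 8.11) in medulla, and the 12 arrays of each tissue did not overlap. It differed by −0.86 (SE 0.07, adjusted p = 2e-06), by −0.56 in control pair 4, and was lower in cortex in 12 of 12 pairs. Slc16a12, a creatine carrier, had 7.14 to 9.31 (median 8.27) in cortex and 6.62 to 7.05 (median 6.78) in medulla, again without overlap, with a difference of 1.32 (SE 0.17, adjusted p = 7.13e-05) and of 0.70 in control pair 4. Hbb, the beta globin of red cells, was lower in cortex in 12 of 12 pairs, by −0.84 (SE 0.15, adjusted p = 0.000676). Its level varied more between rats than between tissues, from 7.32 to 12.84 in cortex and from 7.81 to 13 in medulla, and both extremes of each tissue came from the same rats, control 4 and control 3. Without the pairing the adjusted p for Hbb was 0.27.

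Promoters of the genes furthest apart were read for letters bound by 2 factors of the proximal tubule, as a description. RefSeq promoters (GRCr8, from 250 bases before to 50 after the start) were found for 7314 of the 8794 genes. The 9 letters GTTAATNAT, part of the HNF1 motif, were present on either strand in 3 of the 200 promoters of largest cortical difference (1.5%), 2 of the 200 of largest medullary difference (1%) and 32 of all 7314 (0.438%). The letters CAAAGTCCA, one form of the HNF4 motif, were present in 0 (0%), 3 (1.5%) and 25 (0.342%). A match is a string of letters and not a measured binding site. Windows around the HNF1 letters of 3 cortical genes and 1 medullary gene are shown because they are the named genes of the sets that hold them, with the letters in capitals (reverse strand in F13b and Prodh2).
F13b, chr13:53681552-53681610 (+): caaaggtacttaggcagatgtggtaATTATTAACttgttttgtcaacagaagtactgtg
G6pc1, chr10:86807409-86807458 (+): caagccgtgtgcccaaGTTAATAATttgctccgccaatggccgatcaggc
Prodh2, chr1:94880917-94880975 (+): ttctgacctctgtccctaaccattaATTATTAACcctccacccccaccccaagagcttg
Gc, chr14:18916036-18916094 (+): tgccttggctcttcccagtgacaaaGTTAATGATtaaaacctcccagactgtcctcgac
F13b, G6pc1 and Prodh2 were higher in cortex by 2.20, 1.62 and 2.10, and Gc was lower by −3.10, so the letters stood in promoters of both directions.

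The tissue difference was then compared between diets. In the 6 control pairs 3352 probes differed between the tissues, 5561 without control pair 4, and in the 6 HLP pairs 5882. No probe (0 of 12356, 0%) passed the test of the difference between HLP and control pairs, with 1022 probes at an unadjusted p under 0.05 and 953 without control pair 4. The smallest adjusted p was 0.599. Several medullary genes had larger differences in HLP pairs, Slc7a13 at −2.05 against −0.78 in the 5 control pairs and Mme at −3.09 against −1.76, and Calb1 had a smaller one, 2.60 against 4.08. For Slc7a13 the difference between diets was −1.28 (adjusted p = 0.617 without control pair 4), so it did not pass the test after adjustment over all probes. The diets are those of the signal table, and 6 of the 12 pairs carry the other diet in the log2 table.

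The 12 pairs with apocynin, from rats on which the contrast was not fitted, gave the same direction for the large differences. Of the 307 probes called at 2-fold or more over the 12 pairs without apocynin, 307 had the same direction with apocynin, 302 were called in it and 0 were called in the other, with a slope of 0.90. Of the 407 probes called at 2-fold over the 11 pairs, 407 had the same direction and 401 were called in it, with a slope of 0.76 and a median size of 1.44 without apocynin and 1.11 with it. These probes were chosen for their size in the 11 pairs, and the pairs with apocynin kept apocynin pair 4, at a slope of 0.22. The smaller size with apocynin is therefore not read as a weaker tissue difference. Of the 6757 probes called without apocynin and tested in both, 5385 (79.7%) had the same direction, 3770 were called in it and 317 were called in the opposite one. Calb1 differed by 2.21, Slc5a2 by 2.17, Nphs1 by 1.82, Cldn16 by −1.27, Slc14a2 by −1.96 and Gc by −3.49 in the pairs with apocynin.

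**Figure D5:**
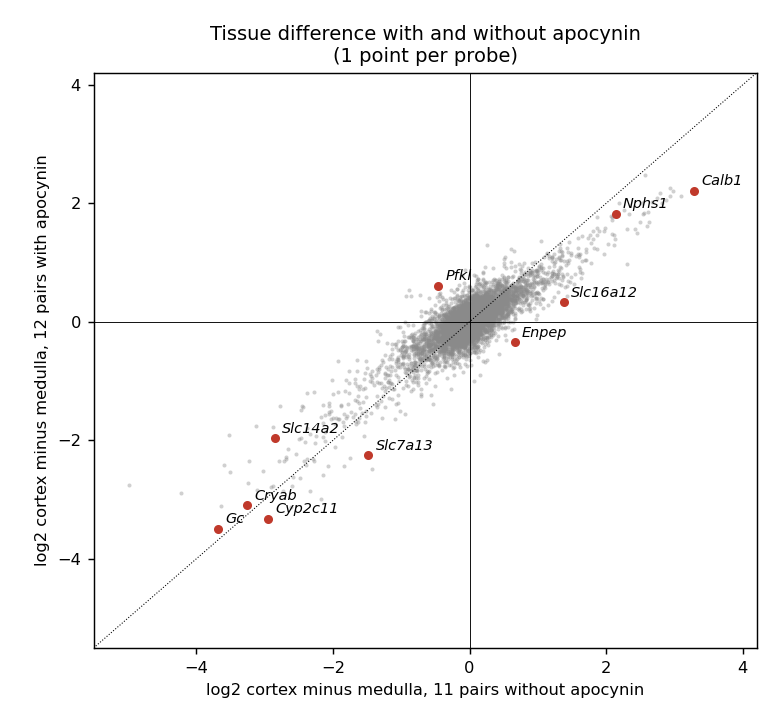
Log2 difference (cortex minus medulla) of each probe tested in both sets, in the 11 pairs without apocynin and without control pair 4 (x axis) and in the 12 pairs with apocynin (y axis), with 10 genes in red and the line of equality dotted. Gc and Cryab are low and Calb1 and Nphs1 high on both axes, while Pfkl (−0.46 and 0.61) and Enpep (0.66 and −0.34) have opposite signs.

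Smaller differences were not the same in both sets. The test of the tissue difference with apocynin minus that without was passed by 3754 of 12900 probes (29.1%), and by 4526 of 12854 without control pair 4. This test was fitted on all 48 arrays normalized together, so its change is not exactly the difference of the values fitted on each set alone. Only 13 of the 3754 reached 2-fold and 135 reached 1.5-fold, and 59.2% were at a log2 signal under 7. Pfkl, the liver phosphofructokinase, differed by −0.41 without apocynin and by 0.61 with it, a change of 1.02 (adjusted p = 0.000345). Enpep differed by 0.68 and −0.34 (change −1.02, adjusted p = 0.000118), and Cpt1a, which brings fatty acids into mitochondria, by −0.17 and 0.43 (change 0.61, adjusted p = 1.02e-05). Slc16a12 fell from 1.32 to 0.33 (change −0.95, adjusted p = 0.00109), Slc6a6 went from −0.86 to −0.25 (change 0.59, adjusted p = 0.00223) and Slc7a13 from −1.23 to −2.25 (change −1.03, adjusted p = 0.0122). Without control pair 4 the change was 1.08 for Pfkl, −1.0 for Enpep, 0.61 for Cpt1a, −1.01 for Slc16a12, 0.62 for Slc6a6 and −0.79 for Slc7a13, and each was still called. Before normalization the cortex arrays with apocynin had medians of 43.5 to 50.6, against 36.4 to 39.9 without it. The medulla arrays had 55.6 to 75.1 with apocynin and 49.3 to 61.1 without it, ranges that overlapped. No chip or hybridization day is given, so apocynin and such a batch cannot be told apart.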

How the data were processed

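Labels and files gave 48 arrays, of which 24 (12 pairs) were used for the contrast and 24 with apocynin for comparison. The deposited signal table holds the intensity of each probe on a linear scale, not normalized by the authors, and the deposited detection p-value of each probe and array. The deposited log2 table holds log2 values normalized by the authors and served as an alternative. The authors read the arrays on an Illumina bead array reader and used the gene expression module of Genome Studio.

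Intensities were background-corrected and quantile normalized with limma 3.58.1 (nec with an offset of 16, R 4.3.3, statmod 1.5.0) over the 24 arrays, and log2 values were fitted with the rat as a block and moderated variances with a trend. Probes detected at p under 0.05 in at least 6 arrays were tested. The number of arrays limits the precision. The pairing comes from the shared group and number. The deviations of same-numbered arrays had a median correlation of 0.27 (−0.79 to 0.46), against −0.08 for other arrays, and 8 of 12 were closest to their partner.

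Named genes were up to 15 of largest difference in each direction with at least 11 of 12 pairs on the same side, up to 4 members of each list in each direction by adjusted p, list members named as not called, genes named by the study, and up to 5 each way for each difference of contrasts. Members and lists were chosen with earlier results of these data known. The fit was tested on simulated data. Alternatives changed the background correction, normalization, filter, block, table and pairs. Probes were named from the platform annotation, and 3437 tested probes have no name here.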

Additional observations from a re-analysis of the deposited data

Results flagged for a closer look

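Among the 272 sets of 6 pairs examined (list means, genes and slopes), 14 (5.15%) held a pair far from the other 5, and chance gives about 1 in 20. In 8 of them the pair was control pair 4, with cortex minus medulla differences of 0.80 for the urothelial list, 1.11 for Cldn16, 0.35 for Aqp1, 2.43 for Krt19, −0.64 for Hao1, −0.73 for Cyp2r1, 0.46 for Cyp2d1 and 2.34 for Cldn3. The other 6 came from HLP pairs. The adipose list stood at −0.70 in HLP 2, the skeletal muscle list at 0.14 in HLP 3, the NADPH oxidase list at 0.51 in HLP 1, Vwf at 0.16 in HLP 4, Adipoq at −0.02 in HLP 5 and Myl1 at 0.34 in HLP 3.

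The tissue difference was not the same in pairs with and without apocynin for 3754 probes, by limma at an adjusted p under 0.05. The 5 genes each way with the smallest adjusted p were Cmtm1, Hoxb1, Tchp, Msra and RT1-T18, with a positive change, and Padi2, Pcdh8, Drd1, Apbb1 and Mcf2l, with a negative one. All lay near background in the pairs without apocynin. Cmtm1 had 6.40 to 6.65 over both tissues there, and its differences between them were −0.19 to −0.13. Of the other genes named in the text, the change was 0.46 for Slc9a3 (adjusted p = 0.0122) and −0.42 for Slc5a8 (adjusted p = 0.039). It was −1.03 for Slc7a13, 0.46 for Cldn4 (adjusted p = 0.0422), 0.59 for Slc6a6, 1.02 for Pfkl and 0.61 for Cpt1a. For Enpep it was −1.02, for Slc16a12 −0.95, for Cyp21a1 0.08 (adjusted p = 0.0317) and for Tnnt3 0.09 (adjusted p = 2.6e-06). Apocynin and a batch by chip or hybridization day cannot be told apart, since neither is given.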

How the results depend on the processing

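Over the 12 pairs the count of 7116 probes was 10883 without a detection filter and 3612 of probes with a mean log2 signal of 7 or more, and leaving out 1 pair gave 6507 to 7723. The 3352 probes of the 6 control pairs became 7827 under median scaling, 6914 after quantile normalization within tissue, 5297 without a filter, 9936 in the authors' log2 table, 2161 by the methods' t-test after Benjamini-Hochberg adjustment and 796 at a signal of 7 or more. Leaving out 1 control pair gave 1581 to 5561, with 1581 without control 2, 1807 without control 3, 5561 without control 4, 1690 without control 5 and 1641 without control 6. The signal minimum of 7 in each comparison was chosen after seeing the data, as were 2 further alternatives for the control pairs, which gave 5295 with the diets of the log2 table and 5569 without pairs 1 and 4. In the 6 HLP pairs the log2 table gave 9245 and a signal of 7 or more 3044. For the diet difference the log2 table's diets gave 1 probe and leaving out pairs 1 and 4 gave 1. The 3754 probes of the apocynin difference became 2232 under median scaling, 6394 without a filter, 2364 with detection in all arrays of a tissue and 1367 at a signal of 7 or more. The cause of these changes was not tested beyond the number of probes or pairs that each setting kept.

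Without the replicate block, the counts were 7163 over 12 pairs, 3953 for control pairs, 5995 for HLP pairs, 0 for the diet difference and 3115 for the apocynin difference, and with the pair as a random block they were 7097, 3877, 5904, 0 and 3733. Median scaling moved the median of all probes to −0.08 and the authors' log2 table to −0.39, against 0.01 here. Of 106 named genes examined, 11 lost their call in the log2 table, 6 gained one and 2 changed sign. Under median scaling these numbers were 1, 5 and 1. Miox, not called here, stood at −0.26 under median scaling, −0.26 after quantile normalization within tissue and −0.31 in the log2 table, and Myl1, at 0.1 here, stood at −0.13 in the log2 table.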

Other observations

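Members of other gene families differed between cortex and medulla in both directions, at shares that stand beside 31.2% of all genes higher in cortex and 25% higher in medulla, and nothing particular to these families is read from them. Of 38 tested cytochromes P450, 11 were higher in cortex, 15 were higher in medulla and 12 were not called. Cyp4a1, a fatty acid hydroxylase, was higher in cortex by 1.5 (SE 0.20, adjusted p = 7.29e-05), while its second probe differed by only 0.34, and Cyp2r1, a vitamin D 25-hydroxylase, was higher by 0.77 (SE 0.13). Cyp2d1 stood at −0.56 (SE 0.08). Among conjugation enzymes 9 of 32 were higher in cortex and 13 in medulla, with Ugt2b7, a glucuronosyltransferase, at 1.58 (SE 0.33) and Gstp1, a glutathione transferase, at −0.91 (SE 0.15) on its brighter probe and −1.83 on its second probe.

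Of 13 tested claudins, the proteins that set the permeability between epithelial cells, 5 were higher in cortex and 6 in medulla, among them Cldn16, Cldn19 and Cldn4 of the segment lists. Cldn3 had the largest difference, at −1.77 (SE 0.32, adjusted p = 0.000671). In the prostaglandin list 5 of 10 genes were higher in cortex and 3 in medulla. Ptgds, a prostaglandin D synthase, stood at 1.41 (SE 0.32) and Ptger3, a receptor for prostaglandin E2, at −0.99 (SE 0.25). Of 6 tested endothelial genes 0 were higher in cortex, 3 were higher in medulla and 3 were not called. Their differences ran from −0.52 to 0.13, with a median of −0.22. Plvap, of fenestrated vessels, and Vwf, von Willebrand factor, stood at −0.52 (SE 0.12) and −0.47 (SE 0.16).

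Of the 30 probes with the largest differences over the 12 pairs, 6 have no gene name in the table used here. The largest of these differed by −4.07 (SE 0.78, adjusted p = 0.000888), and by −4.98 without control pair 4, more than any named gene in either set of pairs.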
